A study of Homo sapiens with 4 samples.

Results

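The proximal T-cell receptor kinases and adaptors are the proteins that turn binding at the T-cell receptor into the first signals inside the cell. Their transcripts were examined in the human cell line Jurkat, derived from a T-cell acute lymphoblastic leukaemia. The members were fixed by name as LCK, FYN, ZAP70, TXK, LAT, LCP2, GRAP2, PLCG1 and VAV1, and all 9 had 1 row each among the 26733 genes of the expression matrix. One group was treated with GNE987 (labelled dose 25 nmol, with no volume given) and the other was labelled as not treated, with a time of 24 h and 2 libraries each of polyadenylated RNA. GNE987 is a degrader that brings BET bromodomain proteins, which read acetylated chromatin, to the VHL ubiquitin ligase. The labels name no vehicle for the untreated cells. They also do not say that the libraries of a group were grown as separate cultures, so each p-value reflects the spread between the libraries at hand, and that spread may be technical.

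When the receptor is engaged, the SRC family kinases LCK and FYN phosphorylate its CD3 and zeta chains, and ZAP70 docks there and is activated by LCK. ZAP70 then phosphorylates the membrane scaffold LAT and the cytosolic scaffold SLP-76, the product of LCP2, which are joined by GADS, the product of GRAP2. On this scaffold PLCG1, the phospholipase that makes the second messengers for calcium and Ras signals, is phosphorylated by TEC family kinases such as TXK, and VAV1 activates small GTPases. Much of this order was worked out in Jurkat sublines that lack single members, among them LCK, ZAP70, LAT and SLP-76.

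The libraries held 16041022 to 18938465 counts. Across tested genes, which are not independent replicates, log2 CPM (counts scaled to library size with TMM factors) correlated with r = 0.989 for the treated pair and r = 0.967 for the untreated pair. For 7 of the 9 members untreated replicate 2 was shifted from untreated replicate 1 towards the treated libraries, and the changes without it are given at the end. Many other genes of the pathway had the same shift, so it is not particular to the members. Its share over all tested genes was not counted. All 8 T-cell markers examined had reads in every library, with a summed level of 1350 and 1480 CPM in the treated libraries and 1669 and 1699 CPM in the untreated ones. Of these, 6 fell, CD7 rose and CD3E did not pass, beside 37.2% called lower and 34.4% called higher over all tested genes. CD3D and CD3E made up most of the sum in each library. The median log2 fold change of the 8 markers was -2.46, so the sum hides larger falls of others. The 5 myeloid markers summed to 142 and 147 CPM with GNE987, and to 0.539 and 29.7 CPM in the untreated libraries 1 and 2; 3 of them were called higher. The 4 B-cell markers with a row summed to 97.8 and 107 CPM with GNE987 against 41.5 and 51.6 CPM without, nearly all of it from CD79A. PAX5, the defining B-cell factor, had 0 to 3 counts in each library. Markers of NK cells, erythroid cells and epithelium summed to at most 1.38 CPM in any library, and NCR1, GATA1 and KRT18 were each at 0 counts in at least 2 libraries. The 3 fibroblast markers summed to 9.19 and 9.06 CPM with GNE987 against 2.24 and 2.52 CPM without. The part of these markers in the results below was not tested.

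Of the 9 members, 6 fell, 1 rose and 2 did not pass the threshold (edgeR quasi-likelihood test, Benjamini-Hochberg adjusted p of 0.05 over 15910 genes). GRAP2, LCK, LCP2 and LAT fell the most, with log2 fold changes from -5.13 to -2.68, ZAP70 and VAV1 fell by less, and FYN rose. Among all tested genes 37.2% were called lower and 34.4% higher, 71.6% in all, so a call by itself is common here. A call with a log2 fold change below -2 was made for 13.8% of all tested genes and for 4 of the 9 members. The median log2 fold change was -0.98 over the members and -0.03 over all genes tested. In the deposited bulk RNA fewer expressing cells and less RNA per cell cannot be told apart. Levels here are relative to the other RNA of a library, so a rise or fall in absolute amount per cell was not measured. All 9 members passed the filter on low counts, but TXK did so through the untreated libraries alone, and GRAP2 was above its minimum in only 1 treated library.

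Start windows are shown for members with large, small and no called falls and for the member that rose, so that their promoter letters can be compared. RefSeq (GRCh38.p14) gave 17 windows for the 9 genes, each 250 bases before to 50 after an annotated start, and 7 are printed 5′ to 3′ on the gene's strand. Counts per gene do not tell which start was used. The start is position 1 and the base before it -1. Capitals mark 5 short motifs on either strand, which may overlap. The letters AGGAAG are a core bound by ETS factors. The letters TGTGGT are bound by RUNX factors and CAGNTG by E-box factors. The motif of the GATA factors is written AGATAA, and the box at some start sites is written TATAAA. LCK has a distal and a proximal start, the first at chr1:32251015-32251314 and the second at chr1:32273871-32274170, both on the plus strand.
LCK distal: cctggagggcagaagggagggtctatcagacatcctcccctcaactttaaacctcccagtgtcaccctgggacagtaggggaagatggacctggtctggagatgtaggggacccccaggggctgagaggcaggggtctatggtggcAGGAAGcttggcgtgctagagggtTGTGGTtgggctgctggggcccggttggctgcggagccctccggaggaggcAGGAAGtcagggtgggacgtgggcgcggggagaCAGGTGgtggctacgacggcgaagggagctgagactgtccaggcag
LCK proximal: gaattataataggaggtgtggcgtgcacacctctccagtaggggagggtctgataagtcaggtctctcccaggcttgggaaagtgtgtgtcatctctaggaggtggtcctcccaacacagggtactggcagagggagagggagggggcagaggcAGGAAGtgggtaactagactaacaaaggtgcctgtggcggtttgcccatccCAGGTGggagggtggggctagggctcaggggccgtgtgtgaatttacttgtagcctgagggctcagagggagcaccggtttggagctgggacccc
The windows of LCP2 (chr5:170297728-170298027, minus strand) and GRAP2 (the first of 2, chr22:39926354-39926653, plus strand) belong to scaffold genes that fell.
LCP2: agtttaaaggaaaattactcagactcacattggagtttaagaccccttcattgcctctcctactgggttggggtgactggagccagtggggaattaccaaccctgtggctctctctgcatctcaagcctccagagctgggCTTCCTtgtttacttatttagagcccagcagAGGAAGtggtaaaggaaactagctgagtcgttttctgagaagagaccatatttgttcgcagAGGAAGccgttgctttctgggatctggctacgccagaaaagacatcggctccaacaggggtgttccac
GRAP2: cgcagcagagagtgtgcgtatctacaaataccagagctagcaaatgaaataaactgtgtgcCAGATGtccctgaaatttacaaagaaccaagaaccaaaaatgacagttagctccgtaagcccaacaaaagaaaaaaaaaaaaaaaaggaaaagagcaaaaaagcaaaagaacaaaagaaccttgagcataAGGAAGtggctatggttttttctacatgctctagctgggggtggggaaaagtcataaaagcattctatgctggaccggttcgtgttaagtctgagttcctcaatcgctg
ZAP70 (the first of 3, chr2:97713326-97713625, plus strand) fell by less.
ZAP70: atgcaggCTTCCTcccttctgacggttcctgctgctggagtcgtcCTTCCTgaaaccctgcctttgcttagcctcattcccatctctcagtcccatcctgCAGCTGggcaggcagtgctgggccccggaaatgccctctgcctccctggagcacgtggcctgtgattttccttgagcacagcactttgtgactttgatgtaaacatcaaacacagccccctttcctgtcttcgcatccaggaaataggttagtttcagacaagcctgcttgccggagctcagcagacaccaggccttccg
FYN (the first of 4, chr6:111873403-111873702, minus strand) rose, and PLCG1 (chr20:41137293-41137592, plus strand) was not called.
FYN: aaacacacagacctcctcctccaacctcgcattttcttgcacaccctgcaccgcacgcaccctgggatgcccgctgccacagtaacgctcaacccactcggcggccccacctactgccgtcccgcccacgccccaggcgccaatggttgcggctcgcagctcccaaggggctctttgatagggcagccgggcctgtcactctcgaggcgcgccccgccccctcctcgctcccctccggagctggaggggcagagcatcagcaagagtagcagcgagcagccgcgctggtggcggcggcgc
PLCG1: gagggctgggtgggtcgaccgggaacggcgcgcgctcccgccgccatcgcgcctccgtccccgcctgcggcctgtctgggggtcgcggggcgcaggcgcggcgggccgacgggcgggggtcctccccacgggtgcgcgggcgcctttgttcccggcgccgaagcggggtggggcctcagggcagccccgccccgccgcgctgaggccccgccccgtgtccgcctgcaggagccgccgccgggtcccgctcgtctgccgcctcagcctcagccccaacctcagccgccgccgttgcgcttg

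The letters AGGAAG were found in at least 1 window of LCK, ZAP70, LAT, LCP2, GRAP2 and VAV1, the 6 members that fell, and in no window of FYN, TXK or PLCG1. In the printed windows they begin at -104 and -29 at the distal start of LCK, at -96 at its proximal start, at -59 in GRAP2, at -110, -79 and -18 in LCP2 and at -243 and -205 in ZAP70. The printed windows of FYN and PLCG1 hold none of the letters in capitals. Windows of FYN that are not printed do hold some. Window 3 has the RUNX letters at -3 and the GATA letters at -30, and window 4 has the E-box letters at -57. The same letters occur in 33.6% of all 35116 RefSeq windows of this length, and in at least 1 window of 39.6% of the tested genes that could be matched. Among the matched genes they were in 40.6% of the 4466 called lower, 38.3% of the 3362 called higher and 39.7% of the 2729 not called, so the letters were about as frequent in each class. Only 10557 of the 15910 tested genes were matched, and the unmatched ones may differ from them. Windows per gene also differed, at 1.48 for genes called lower, 1.4 for those called higher and 1.45 for those not called. No test of the classes was made, and these shares are a description. The E-box letters were in 7 of the 9 members and 51.8% of the matched genes (49.9% of all windows), and the RUNX letters in 3 members and 13.4% of genes (13.1% of windows). AGATAA was in 1 member and 7.73% of genes (10.3% of windows), and the start-site box in 1 member and 8.09% of genes (11.5% of windows). The short MYB letters AACNGN, not marked by capitals, were in 8 members and 80.0% of genes (77.1% of windows). Matched genes had 1.45 windows each on average, against 17 windows for the 9 members. Base composition differed widely. The printed windows of FYN and PLCG1 had 69.0% and 81.0% G and C with 26 and 47 CG pairs. Those of LCK had 64.3% and 58.7% with 10 and 4, and that of ZAP70 had 56.0% with 7. That of LCP2 had 49.3% with 5 and that of GRAP2 40.3% with 6. Medians over all windows were 58.7% and 14. In windows not printed, G and C made up 82.3%, 38.0% and 47.3% in FYN and 39.0% in TXK. In members that fell they made up 64.0% and 72.3% in LAT, 65.0% in VAV1, 66.0% and 67.3% in ZAP70 and 48.0% in GRAP2. High and low shares thus occurred both in members that fell and in FYN. These matches describe letters in a window, not bound sites.

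LCK, the kinase that starts receptor signalling, lies on chromosome 1 from 32251239 to 32286165 (GRCh38, plus strand). It was at 951 and 783 CPM in untreated replicates 1 and 2, and at 60.1 and 62.1 CPM in the treated libraries. The groups did not overlap, and both treated libraries were below both untreated ones for 46.6% of all tested genes. The mean fell from 866.6 ± 119 to 61.1 ± 1.39 CPM (SD, n = 2), to 7.05% of the untreated level, with a log2 fold change of -3.83 ± 0.17 (SE, adjusted p = 0.000292, edgeR). Only 356 of the 15910 tested genes, or 2.24%, had a lower log2 fold change.

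FYN, the other SRC family kinase of the receptor complex, was the member that rose. It lies on chromosome 6 from 111660332 to 111873452 (minus strand). Its level was 50.1 and 55.9 CPM in untreated replicates 1 and 2 and 97.5 and 95.01 CPM in the treated libraries, so the groups did not overlap. Both treated libraries exceeded both untreated ones for 44.6% of all tested genes. The mean was 53.0 ± 4.10 CPM without and 96.2 ± 1.76 CPM with GNE987 (SD, n = 2), a 1.82-fold rise with a log2 fold change of 0.86 ± 0.12 (adjusted p = 0.00232, edgeR). With library size alone in place of TMM the change was 0.49 (adjusted p = 0.0143), because that scaling moved the median of all genes by -0.37. Relative to the median of all genes the change of FYN was 0.89 with TMM and 0.90 with library size alone.

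ZAP70, the kinase recruited to the phosphorylated zeta chain, lies on chromosome 2 from 97713560 to 97739862 (plus strand). It was at 324 and 319 CPM in the untreated libraries and 153 and 172 CPM in the treated ones. The groups did not overlap, and the untreated pair lay close together. The mean fell to 50.6% of the untreated level, a log2 fold change of -0.98 ± 0.13 (adjusted p = 0.00213, edgeR). TXK, a TEC family kinase on chromosome 4 from 48066393 to 48134256 (minus strand), was nearly silent in all libraries. It had 17 and 15 counts in the untreated libraries and 7 and 4 counts in the treated ones, with 3 counts taken as the floor of detection. Its log2 fold change of -0.98 had a 95% interval from -2.30 to 0.34 (adjusted p = 0.142, edgeR), so a change of its level was not detectable at this depth.

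**Figure D1:**
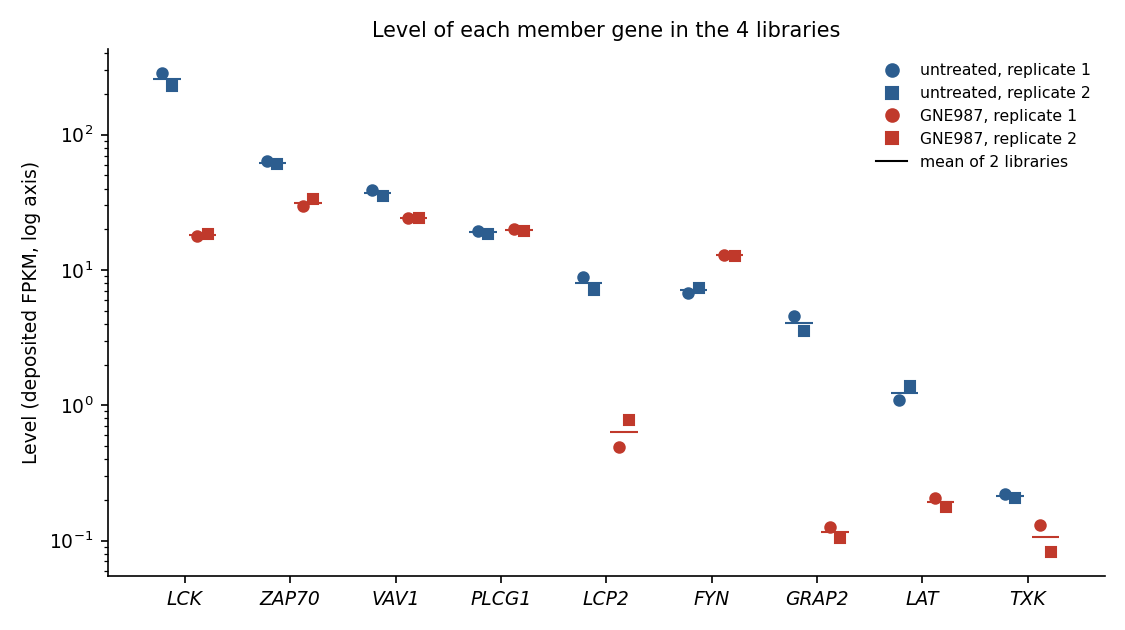
Deposited FPKM of the 9 members (x axis) in each library, on a log axis; circles and squares are replicates 1 and 2, blue untreated and red GNE987, and bars are means of 2 libraries. LCK is highest of the members without GNE987 (285 and 228 FPKM) and lies below ZAP70, VAV1 and PLCG1 with it (17.8 and 18.4 FPKM), while PLCG1 lies between 18.6 and 20.03 FPKM in all 4 libraries.

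The scaffold genes fell together with LCK. LCP2 encodes SLP-76, the cytosolic platform for PLCG1 and VAV1, and lies on chromosome 5 from 170246237 to 170298227 (minus strand). Its level was 64.7 and 52.5 CPM in the untreated libraries and 3.61 and 5.65 CPM in the treated ones, the latter from 55 and 78 counts. The groups did not overlap. The fall was to 7.90% of the untreated level, with a log2 fold change of -3.67 ± 0.25 (adjusted p = 0.000372, edgeR). Its exons share 1.7% of their bases with C5orf58 on the opposite strand. GRAP2 encodes GADS, the bridge between LAT and SLP-76, and lies on chromosome 22 from 39901082 to 39973721 (plus strand). It had 630 and 458 counts in the untreated libraries against 12 and 9 counts in the treated ones, or 28.3 and 22.6 CPM against 0.788 and 0.652 CPM. This was the largest fall among the members, to 2.83% of the untreated level, with a log2 fold change of -5.13 ± 0.25 (adjusted p = 0.000292, edgeR). Of all tested genes 91, or 0.572%, had a lower log2 fold change.

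LAT, the membrane scaffold itself, was a low transcript in these cells. It lies on chromosome 16 from 28984826 to 28990783 (plus strand). There were 108 and 127 counts in the untreated libraries and 14 and 11 in the treated ones, or 4.85 and 6.27 CPM against 0.919 and 0.797 CPM. The groups did not overlap, and here untreated replicate 2 was farther from the treated libraries than untreated replicate 1. The fall to 15.4% of the untreated level gave a log2 fold change of -2.68 ± 0.34 (adjusted p = 0.00189, edgeR). In GENCODE release 29, 47.7% of the exon bases of LAT are shared with a transcript on the same strand, AC109460.3. That transcript had 6 and 4 counts in the treated and 17 and 14 in the untreated libraries. AC109460.4, on the opposite strand, shares 10.2% of the exon bases of LAT and has no row in the expression matrix. Reads from shared bases cannot be assigned with certainty, so the level of LAT is uncertain.

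Of the enzymes that act on the scaffold, VAV1 fell by less than the scaffold genes and PLCG1 was not called. VAV1, an exchange factor for small GTPases, lies on chromosome 19 from 6772714 to 6857366 (plus strand). It was at 167 and 157 CPM in the untreated libraries and at 106.0 and 106.2 CPM in the treated ones, 65.5% of the untreated level. The log2 fold change was -0.61 ± 0.11 (adjusted p = 0.00618, edgeR), but leaving out GNE987 replicate 1 gave an adjusted p of 0.0875 and leaving out replicate 2 gave 0.084. The count of members that fell was then 5 of 9. With library size alone the change of VAV1 was -0.98. PLCG1, on chromosome 20 from 41136960 to 41196801 (plus strand), was at 186 and 184 CPM without and 196 and 188 CPM with GNE987. Its log2 fold change of 0.05 had a 95% interval from -0.24 to 0.34 (adjusted p = 0.703, edgeR), and with library size alone it was -0.32 (adjusted p = 0.0723). Exons of PLCG1 share 1.2% to 2.8% of their bases with each of 4 other genes, among them ZHX3 on the opposite strand.

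**Figure D2:**
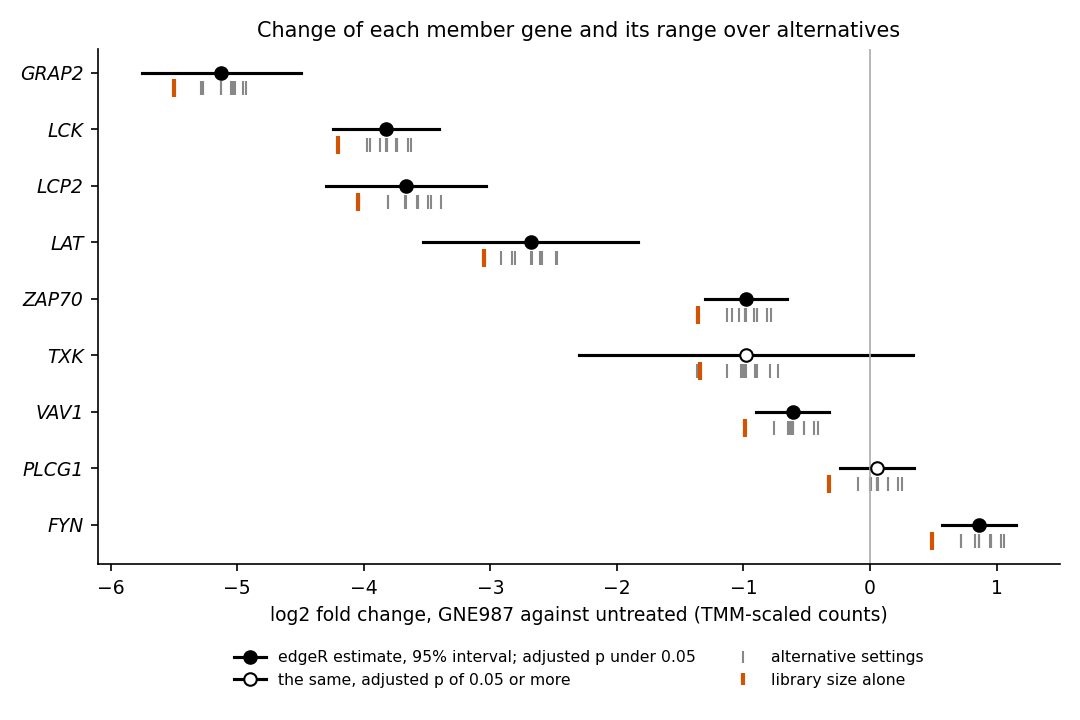
Log2 fold change of each member, treated against untreated, as the edgeR estimate with its 95% interval (filled where the adjusted p is under 0.05), and ticks below for the alternative settings, with library size alone in orange. GRAP2, LCK, LCP2 and LAT stay at or below -2.48 in every setting that tested them, FYN stays between 0.49 and 1.06, and the ticks of PLCG1 lie on both sides of 0.

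The order of the members by length-scaled level was different in the 2 groups. In untreated cells LCK led with 256.6 ± 40.2 FPKM (SD, n = 2), ahead of ZAP70 with 62.1 ± 1.98, VAV1 with 37.2 ± 2.34 and PLCG1 with 18.9 ± 0.546 FPKM. LCP2 with 8.004 ± 1.34 and FYN with 7.06 ± 0.405 FPKM overlapped in range, and GRAP2 with 4.07 ± 0.720, LAT with 1.24 ± 0.199 and TXK with 0.214 ± 0.00879 FPKM followed. In treated cells ZAP70 led with 31.4 ± 2.65 FPKM, followed by VAV1 with 24.3 ± 0.0877, PLCG1 with 19.7 ± 0.541, LCK with 18.1 ± 0.460 and FYN with 12.8 ± 0.200 FPKM, with no overlap between neighbours. LCP2 was then at 0.632 ± 0.199 FPKM, LAT at 0.191 ± 0.0187, and GRAP2 (0.115 ± 0.015) and TXK (0.107 ± 0.0339) overlapped. The gene lengths used for these deposited values were not at hand. No test was made between genes.

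Ratios within a library do not depend on how libraries are scaled to each other. The FPKM of LCK was 42.1 and 31.1 times that of FYN in untreated replicates 1 and 2, and 1.37 and 1.45 times in the treated libraries. PLCG1 was at 2.16 and 2.63 times the FPKM of LCP2, its scaffold, without GNE987, and at 40.8 and 25.0 times with it. VAV1, which binds the same scaffold, went from 4.34 and 5.03 to 49.4 and 31.6 times.

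LCK and FYN are part of a larger SRC family, whose makeup changed. LCK took 93.4% and 92.3% of the summed FPKM of the 9 family genes in untreated replicates 1 and 2 and 49.5% and 49.4% in the treated libraries. The share of FYN went from 2.22% and 2.97% to 36.2% and 34.1%. All 6 of the other family genes that were tested were called (71.6% over all tested genes), 3 lower and 3 higher. FRK was too low to test. SRC (log2 fold change -3.05 ± 0.17) and BLK (-2.84 ± 0.23) were among those that fell. YES1, a widely expressed member, rose (1.03 ± 0.23), as did FGR, known from myeloid cells (1.501 ± 0.36). LYN, the main SRC kinase of B and myeloid cells, had 0 counts in untreated replicate 1, 22 in untreated replicate 2, and 89 and 114 in the treated libraries (adjusted p = 0.0241, edgeR). These values of LYN move with the summed myeloid markers given above, and their part was not tested. LYN was not called by DESeq2 (adjusted p = 0.163), under robust estimation (0.0686) or without GNE987 replicate 1 (0.113) or 2 (0.15). YES1 did not pass with library size alone (adjusted p = 0.0582) or without GNE987 replicate 1 (0.0788) or 2 (0.0571), and FGR did not pass without GNE987 replicate 2 (0.107).

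**Figure D3:**
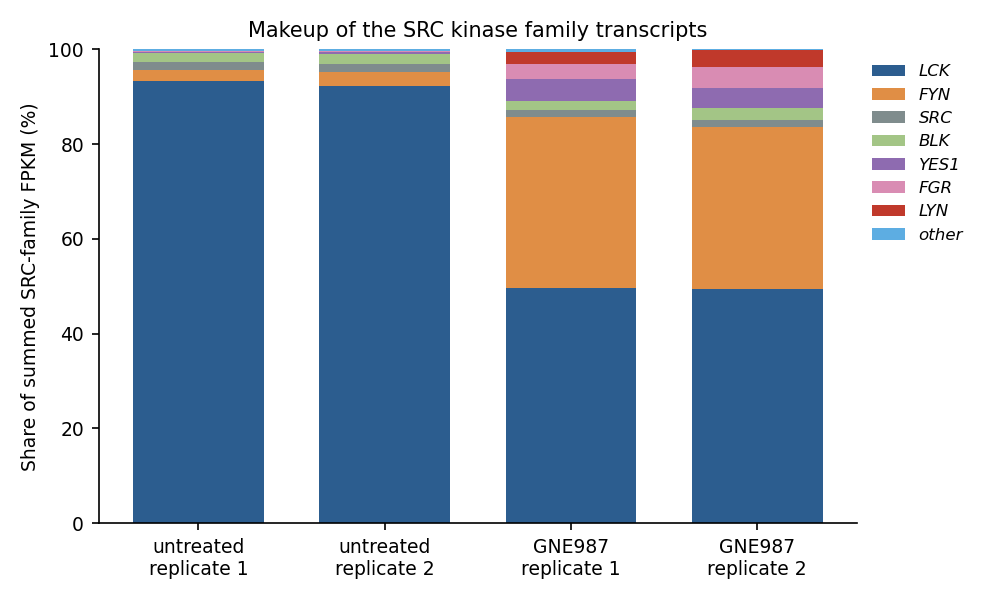
Share of the summed FPKM of 9 SRC family genes (y axis, percent) taken by each of 7 genes, and by the other 2 summed, in each library (x axis). LCK fills 93.4% and 92.3% of the untreated bars and 49.5% and 49.4% of the treated ones, where FYN takes 36.2% and 34.1%.

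Relatives of the other members moved in part with them. SYK, which can stand in for ZAP70, was at 70.3 and 64.3 CPM in the untreated and 27.2 CPM in both treated libraries, a log2 fold change of -1.30 ± 0.12. ZAP70 held 82.5% and 83.5% of the FPKM of the pair without GNE987 and 85.1% and 86.6% with it. BTK, the B-cell TEC kinase, had 16 and 8 counts without and 24 and 20 counts with GNE987 (adjusted p = 0.0385, edgeR). That call was lost in 7 of the 11 alternatives that tested BTK, including without untreated replicate 2 (adjusted p = 0.0841). VAV3 (log2 fold change -3.65 ± 0.18) and VAV2 (-1.34 ± 0.15) fell, and the share of VAV1 in the FPKM of the 3 went from 78.6% and 79.1% to 91.7% and 90.5%. PLCG2 was at 25.0 and 23.4 CPM without and 32.4 and 28.3 CPM with GNE987 (adjusted p = 0.0718, edgeR). It passed in 5 of the 12 alternatives, with adjusted p-values of 0.0346 with RLE factors, 0.0164 with upper-quartile factors (log2 fold change 0.53), 0.0168 with at least 10 CPM in 2 libraries, 0.0377 without untreated replicate 1 and 0.0444 without untreated replicate 2. With library size alone the change was -0.04.

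Among 20 tested adaptors and scaffolds other than the members, 10 fell and 7 rose. The shares over all tested genes were 37.2% lower and 34.4% higher. SIT1, a transmembrane adaptor of lymphocytes, fell from 184 and 158 CPM to 7.48 and 10.5 CPM (log2 fold change -4.25 ± 0.21). TRAT1, an adaptor that stabilises the receptor complex (-4.69 ± 0.31), and SH3BP2, a SYK family partner (-1.74 ± 0.13), fell as well. PAG1, which brings the inhibitory kinase CSK to the membrane, rose by 1.57 ± 0.17. GRB2, GRAP and LAT2 were singled out as relatives of members after their values were seen. GRB2, the ubiquitous relative of GADS, rose from 263 and 336 CPM to 662 and 683 CPM (log2 fold change 1.17 ± 0.17), and GRAP, a lymphoid one that has a near-identical copy in the genome and is therefore uncertain, fell (-2.73 ± 0.46). GRAP2 thus went from 7.26% and 4.77% to 0.0905% and 0.0724% of the FPKM of these 3 genes. LAT2, the relative of LAT known from B and myeloid cells, was at 4.71 and 13.9 CPM in the untreated libraries 1 and 2 and at 48.6 and 48.5 CPM in the treated libraries (log2 fold change 2.39 ± 0.48). The summed myeloid markers were also lowest in untreated replicate 1, higher in untreated replicate 2 and highest in the treated pair, and their part was not tested.

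Over the 10 lists of the pathway around the members, 62 of 101 tested genes fell and 22 rose. Over all tested genes 37.2% were called lower and 34.4% higher, 71.6% in all. The count of each list is to be read beside these shares. The receptor itself was divided. CD247, the zeta chain that ZAP70 binds (log2 fold change -2.47 ± 0.14), CD3G (-2.59 ± 0.16), the costimulator CD28 (-2.73 ± 0.16) and PTPRC, the phosphatase CD45 that keeps LCK active (-1.64 ± 0.14), fell. Of 12 genes of receptor chains and coreceptors 7 fell and 1 rose. The gene that rose was the coreceptor CD4 (1.72, adjusted p = 0.00562, edgeR). The receptor chains TRBC2 (-0.88, adjusted p = 0.0149, edgeR) and CD3D (-0.40, adjusted p = 0.0324, edgeR) fell by less. TRAC (-0.23, adjusted p = 0.179, edgeR) and TRBC1 (0.24, adjusted p = 0.139, edgeR) were not called. CD3E, singled out after its values were seen, was at 507 and 639 CPM without and 717 and 823 CPM with GNE987 (adjusted p = 0.0688, edgeR, and 0.0212 with upper-quartile factors), and LCK went from 1.60 and 1.04 times the FPKM of CD3E to 0.0715 and 0.0643 times.

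Negative regulators of proximal signalling fell in 11 of 13 cases and rose in 1, with a median log2 fold change of -2.47. Of all tested genes 37.2% were called lower and 34.4% higher. SLA, an adaptor that promotes loss of the receptor, fell (log2 fold change -5.89 ± 0.20), and PTPN6, the phosphatase SHP-1, fell from 151 and 118 CPM to 4.60 and 5.80 CPM (-4.69 ± 0.21). DOK1 and DOK2, adaptors that recruit inhibitors of Ras, fell too (-3.57 ± 0.17 and -2.85 ± 0.14).

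Downstream branches were mixed, beside shares of 37.2% lower and 34.4% higher over all tested genes. In the Ras and MAP kinase branch 6 of 11 genes fell and 2 rose. RASGRP1, the Ras activator that responds to the product of PLCG1, was at a log2 fold change of -3.47 ± 0.21, NRAS at -2.01 ± 0.16 and the kinase MAP2K1 at 1.45 ± 0.19. In the PKC theta and NF-kB branch 9 of 12 fell and 2 rose, with IKBKB at -2.58 ± 0.17, PRKCQ, which encodes PKC theta, at -2.30 ± 0.19, and BCL10 at 1.89 ± 0.24. In the calcium and NFAT branch 6 of 11 fell and 3 rose. NFATC1 was at -1.53 ± 0.16, NFATC3 at -1.27 ± 0.15, NFATC2 at -2.07 ± 0.27 and the calcineurin subunit gene PPP3R1 at 0.81 ± 0.12. In the actin branch, which VAV1 feeds, 6 of 10 fell and 2 rose, with WIPF1 at -2.95 ± 0.25, its partner WAS at -1.14 ± 0.13, RAC1 at -0.9995 ± 0.13 and PAK2 at 0.80 ± 0.13. PAK2 did not pass without GNE987 replicate 1 (adjusted p = 0.056) or 2 (0.0502). Adjusted p-values of the genes given here with a standard error alone ran from 0.000292 to 0.0103 for all but FGR at 0.0135 (edgeR). Without GNE987 replicate 1 or without GNE987 replicate 2, 13 pathway genes rose in place of 22.

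**Figure D4:**
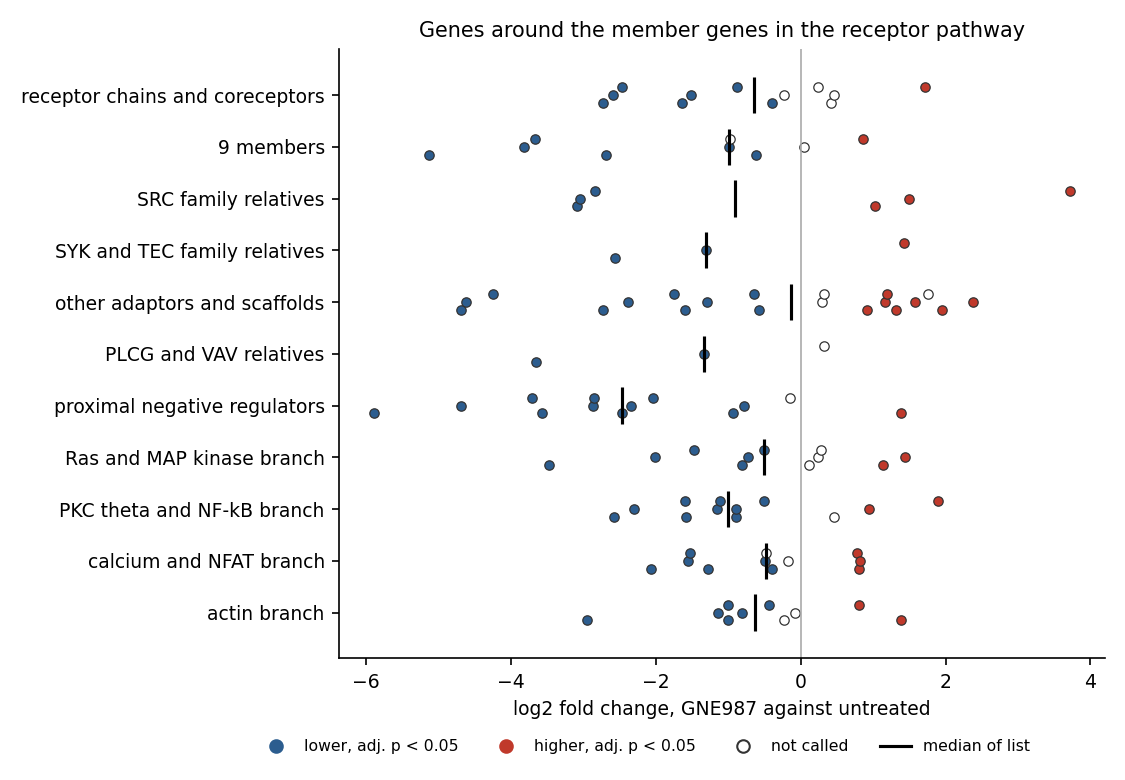
Log2 fold change (x axis) of each tested gene in 11 groups of the receptor pathway (y axis), blue where lower and red where higher at an adjusted p under 0.05, open where not called, with the median of each group as a bar. Negative regulators have a median of -2.47, the members of -0.98 and other adaptors of -0.14, and every group except that of PLCG and VAV relatives holds called genes on both sides of 0.

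The 2 genes nearest to each member were sought among the 8568 tested genes whose mean reached 10 CPM, by the Euclidean distance of log2 CPM over the 4 libraries after centring. With 4 libraries such a likeness describes little more than the change and the spread of the pairs. CDK4, a G1 cyclin-dependent kinase, was nearest to LCK (distance 0.0162), at 249 and 206 CPM without and 15.6 and 16.02 CPM with GNE987, and IFRD2 was next (0.0514). The nearest to the other falling members were MIEN1 and EMC8 for ZAP70 (0.0224 and 0.0336), PSMG1 for LCP2 (second nearest, 0.103), MRPL47 and PUDP for GRAP2 (0.119 and 0.141), and DNAJC5 and RNF149 for VAV1 (0.0149 and 0.0181). No close match was found for LAT, whose nearest genes, KDM5D and YIPF6, were at 0.330 and 0.336. NR2C2 and USP36 were nearest to FYN (0.0219 and 0.0279), CMTM6 and ZC3H14 to PLCG1 (0.0164 and 0.0215), and DBT and VPS13A to TXK (0.0763 and 0.086).

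With untreated replicate 2 left out, the log2 fold change was -3.95 for LCK, -5.27 for GRAP2, -3.81 for LCP2, -2.48 for LAT, -0.99 for ZAP70, -0.64 for VAV1 and 0.95 for FYN, and all 7 calls were made. Untreated replicate 2 was set on a scale with untreated replicate 1 at 0 and the treated mean at 100%. It stood at 18.9% for LCK, 20.3% for LCP2, 20.6% for GRAP2 and 16.2% for VAV1. For FYN it stood at 12.6%, for TXK at 5.79% and for ZAP70 at 3.36%. It was on the far side for LAT (-35.7%) and for PLCG1 (-41.3%), which was not called. In the authors' deposited table the log2 fold changes were -3.83 for LCK, 0.86 for FYN, -0.98 for ZAP70, -1.001 for TXK, -2.69 for LAT, -3.67 for LCP2, -5.14 for GRAP2, 0.05 for PLCG1 and -0.61 for VAV1. Adjusted p-values in the authors' deposited table were 0.472 for TXK and 0.779 for PLCG1 and at most 0.000253 for the other members.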

How the data were processed

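Per the submitters' processing notes reads were aligned with HISAT2 2.2.0 to hg38. Neither these notes nor the labels state how reads were counted, with which annotation, or whether strand was used. The kit named in the labels, Illumina TruSeq RNA, does not mark strand. The deposited counts are whole numbers per gene and library, judged from the column names and values. The FPKM values deposited by the authors are those counts times 1 factor per library and 1 per gene (within 7.18e-06% over 10301 genes), and were used only for levels between genes. The log2 fold change and the p-value columns deposited by the authors come from a test not given here and were only quoted.

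Low genes were removed by filterByExpr in edgeR 4.0.16 (minimum count 10, minimum total 15; 15910 of 26733 stayed), scaled by TMM and tested in R 4.3.3 with estimateDisp, glmQLFit and glmQLFTest, GNE987 against untreated, on all 4 libraries with 2 residual degrees of freedom, and adjusted by Benjamini-Hochberg (threshold 0.05). The standard error is the log2 fold change divided by the square root of F. The floor of 3 counts equals 0.135 to 0.217 CPM and covers counting error only, since reads carry no molecular identifiers. Profiles were compared on log2 CPM with a prior count of 2. The script was run on simulated counts in which few genes changed, equally in both directions and with a fixed dispersion. That run does not cover a change as broad as the one in these data. Coordinates are from GENCODE release 29, which matched all 26733 identifiers.

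The members and lists were chosen with earlier results of these data known. Named are all members, up to 4 genes with the smallest p per pathway list, all tested relatives, and the 2 nearest profiles per member. A few genes that this rule names are not reported here. GRB2, GRAP, LAT2, CD3E, CD3D, CD4, TRAC, TRBC1, TRBC2 and markers given by name were added after values were seen. Alternatives were RLE and upper-quartile factors, library size alone, no filter, at least 10 CPM in 2 libraries, DESeq2 1.42.0, a block for the replicate number, robust dispersion estimates, and leaving out each library. With a library left out, its group has 1 sample, assumed to vary like the other group.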

Additional observations from a re-analysis of the deposited data

How the results depend on the processing

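Library size alone moved the median of all genes by -0.37 and upper-quartile factors by 0.20 on the log2 scale. The share of higher genes among those called was 36.4% with library size alone against 48.0%. Without the filter the median was taken over 26733 genes in place of 15910, so its difference of 0.22 is not a shift of the same genes. In that setting LCK was at -3.97 in place of -3.83 and FYN at 0.71 in place of 0.86. The numbers of members called were 6 lower and 1 higher in 9 of the 12 alternatives, and 5 lower and 1 higher without either treated library and with at least 10 CPM in 2 libraries, where LAT was not tested. Leaving out 1 library gave 6306 to 13341 called genes in place of 11387, 47 to 64 lower pathway genes in place of 62, and 13 to 28 higher ones in place of 22. The replicate numbers share no stated culture, and the deviations of same-numbered samples did not correlate (r = -0.00595 across genes). With the replicate block 9801 genes were called, 6 members were lower and 1 higher, and 57 pathway genes were lower and 21 higher.

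Reversed directions concerned genes that were not called. The log2 fold change of PLCG1 was -0.321 with library size alone, -0.0942 without the filter and -0.0032 to 0.0615 with 1 library left out. That of CMTM6 was -0.325 and -0.0981 in the first pair of these settings, that of ZC3H14 -0.329, -0.102 and, with 1 library left out, -0.0133 to 0.0461, and that of PLCG2 -0.0438 with library size alone. The causes were not tested. Depth limits TXK most, with 4 to 17 counts a library, then LAT and GRAP2, with 9 to 14 counts in the treated libraries.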
